A study of Mus musculus with 4 samples.

Results

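The histone cluster genes encode the core histones H2A, H2B, H3 and H4 and the linker histone H1, and they lie side by side in a few clusters of the mouse genome. They were taken as the gene symbols that begin with Hist1h, Hist2h, Hist3h or Hist4h, kept when both single-cell libraries together held at least 50 UMIs, a UMI (unique molecular identifier) being the count of 1 captured RNA molecule. Of 31053 genes in the matrices, 67 carried such a symbol and 62 of these were kept. The 5 left out were Hist1h2ao with 46 UMIs, Hist1h2bq and Hist2h2aa2 with 1 UMI each, and Hist1h2ba and Hist1h2aa with 0. The lowest members kept were Hist1h2ah with 58 and Hist2h3c2 with 61 UMIs. The members hold 6 H1, 15 H2A, 16 H2B, 12 H3 and 13 H4 genes.

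Whole kidneys of newborn mice were profiled by droplet single-cell RNA-seq, with 1 library of the genotype Six2CreTet2/3f/f and 1 of the genotype Six2Cre, so no test across animals was possible. Both carry Six2Cre, a Cre recombinase under the control of Six2, a gene of nephron progenitors. Its action falls on these progenitors and on the nephron cells that descend from them, while stroma, endothelium, ureteric bud and blood cells arise from other lineages. In the Six2CreTet2/3f/f mice the floxed genes are Tet2 and Tet3, enzymes that oxidise 5-methylcytosine. Another 2 samples of the series, bisulfite libraries of sorted Six2-positive cells, were not analysed here. The labels do not say how many animals each library holds, so genotype, animal and library cannot be told apart in any difference below.

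Most histone genes of the clusters are replication-dependent. They are transcribed mainly in S phase, and their mRNA ends in a stem-loop in place of a poly(A) tail. A smaller set also gives, or mainly gives, polyadenylated mRNA, which can persist in cells that have left the cycle. The libraries prime cDNA on poly(A), so a stem-loop mRNA without a tail is caught poorly, and a UMI of such a gene is a captured molecule and not a measure of how much mRNA the cell held. Levels of the 2 kinds are therefore not compared as mRNA amounts. A list of 8 members known to give polyadenylated mRNA was used: Hist1h1c, Hist1h2ac, Hist1h2bc, Hist1h2be, Hist1h4h, Hist2h2be, Hist3h2a and Hist3h2ba. The other 54 members are called replication-dependent here, whatever the tail of the molecules that were caught.

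Of the 62 members, 61 matched 1 gene of the RefSeq table for GRCm38.p6, and 49 of these lie on chromosome 13, 9 on chromosome 3, 2 on chromosome 11 and 1 on chromosome 6. Hist1h2ap, which had the most UMIs, matched more than 1 RefSeq gene and was given no position. The promoter table held 1 promoter for 55 members. In the 250 bases before the start, CCAAT on either strand, the letters of the CCAAT box that the factor NF-Y binds, stood in 80.0% of these 55 promoters against 33.8% of all 32817 promoters of the table. It stood in 6 of 6 H1, 14 of 14 H2A and 13 of 13 H2B promoters, in 8 of 10 H3 promoters and in 3 of 12 H4 promoters. The octamer ATTTGCAT on either strand, the letters that the factor Oct-1 binds, was found in 6 of 14 H2A and 5 of 13 H2B promoters and in none of the H1, H3 and H4 promoters. It stood in 1.60% of all promoters. TATAAA on either strand was found in 49.1% of the members' promoters and in 12.4% of all promoters. None of the 3 motifs contains another, and a match describes letters in a window, not a bound site.

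The 5 promoters below belong to members on which the results turn, with the 150 bases that end just before the transcription start given 5′ to 3′ on the gene's strand (RefSeq, GRCm38.p6). The runs in capitals are CCAAT and TATAAA and their reverse complements ATTGG and TTTATA. Hist1h1b, an H1 gene (chr13:21780626-21780775, minus strand), had the largest change with S phase. Hist1h1a, another H1 gene (chr13:23763518-23763667, plus strand), and the H4 gene Hist1h4a (chr13:23761250-23761399, minus strand) were higher in the Six2CreTet2/3f/f library. The H2A gene Hist2h2ac (chr3:96220881-96221030, minus strand) was lower there. The H2B gene Hist3h2ba (chr11:58948761-58948910, plus strand), of the polyadenylated list, was concentrated in podocyte-like and progenitor-like cells.
Hist1h1b: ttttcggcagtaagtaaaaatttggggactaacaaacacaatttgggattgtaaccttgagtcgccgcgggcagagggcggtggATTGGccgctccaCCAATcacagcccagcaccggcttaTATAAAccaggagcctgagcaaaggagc
Hist1h1a: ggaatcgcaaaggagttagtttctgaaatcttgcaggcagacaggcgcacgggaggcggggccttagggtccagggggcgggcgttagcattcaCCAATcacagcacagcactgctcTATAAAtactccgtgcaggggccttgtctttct
Hist1h4a: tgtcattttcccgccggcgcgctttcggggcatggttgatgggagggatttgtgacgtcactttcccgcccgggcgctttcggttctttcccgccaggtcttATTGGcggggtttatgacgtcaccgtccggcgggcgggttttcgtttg
Hist2h2ac: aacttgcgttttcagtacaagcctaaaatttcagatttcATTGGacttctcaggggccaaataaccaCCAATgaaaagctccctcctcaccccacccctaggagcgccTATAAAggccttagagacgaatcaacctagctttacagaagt
Hist3h2ba: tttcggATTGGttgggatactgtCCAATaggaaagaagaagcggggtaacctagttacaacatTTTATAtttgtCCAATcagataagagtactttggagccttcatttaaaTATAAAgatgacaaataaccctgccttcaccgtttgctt
Hist3h2ba holds 3 matches of CCAAT on either strand, at 144, 127 and 76 bases before the start, and 2 of TATAAA. Hist1h1b and Hist2h2ac hold 2 of CCAAT and 1 of TATAAA each. Hist1h4a holds 1 CCAAT match and no TATAAA in these bases.

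The Six2CreTet2/3f/f library held 22543 barcodes and 115427704 UMIs, and the Six2Cre library 25736 barcodes and 197745868 UMIs, with 174 barcodes found in both. After filtering, 14394 cells of the Six2CreTet2/3f/f library (median 4776 UMIs) and 19493 of the Six2Cre library (median 5990 UMIs) were kept. Clustering without any histone gene gave 29 clusters, and 12 classes were named from marker genes. Of the Six2 lineage are the nephron progenitor-like, committed nephron-like, podocyte-like, proximal tubule-like and loop of Henle/distal tubule-like classes. The others are ureteric bud/collecting duct-like, stroma-like, mural/renin cell-like, endothelium-like, macrophage-like, neutrophil-like and erythroid-like. Tet3, the check of the genotype, was at 41.3 CPM (a gene's UMIs scaled by the total UMIs of the class) in progenitor-like cells of the Six2CreTet2/3f/f library and 91.4 CPM in those of the Six2Cre library. Tet2 was at 24.1 CPM and 28.7 CPM there. Tet3 ratios, Six2CreTet2/3f/f over Six2Cre, were 0.45 to 0.57 in classes of the Six2 lineage and 0.73 to 1.03 in the others. Stroma-like cells (0.78, 0.71 to 0.85) and endothelium-like cells (0.75, 0.66 to 0.85) were among those below 1, so the lower Tet3 level was not confined to the Six2 lineage. Tet2 ratios ran from 0.53 in macrophage-like to 2.04 in erythroid-like cells, with 0.84 in progenitor-like cells. Which exons are floxed is not given in the sources used here, so 3′ counts of these genes check the labels only in part.

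A few members gave most of the UMIs. Hist1h2ap (H2A) was at 215 CPM over all kept cells of the Six2CreTet2/3f/f library and 187 CPM over those of the Six2Cre library. Hist1h1e (H1) was at 194 CPM and 143 CPM in the same order, and Hist1h1b (H1) at 147 CPM and 126 CPM. These 3 genes held 48.1% of the members' UMIs in the Six2CreTet2/3f/f library and 44.7% in the Six2Cre library. The 12 members with the most UMIs held 77.7% and 77.1%, and beside those 3 they were Hist1h2ae, Hist1h2bc, Hist3h2ba, Hist1h1c, Hist1h4d, Hist1h4i, Hist3h2a, Hist1h4h and Hist1h3e. At the other end, the median replication-dependent member was at 3.70 CPM in the Six2CreTet2/3f/f library and 3.45 CPM in the Six2Cre library. Several members are near-identical copies of each other, and how reads that match more than 1 copy were counted is not given in the sources used here, so values of single H2A, H2B, H3 and H4 genes are uncertain in that respect.

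Within each library the sum of the replication-dependent members was higher in S-phase cells than in cells with no cycle call, and the sum of the polyadenylated members was slightly lower. Each cell was thinned to 2000 UMIs and called S phase or G2/M from lists of 25 and 21 genes that hold no histone, with at least 2 UMIs of a list needed for a call. The call was S phase where the S-phase list had more UMIs than the G2/M list. It was G2/M otherwise, ties included. In the Six2CreTet2/3f/f library the replication-dependent sum was 948 CPM in 4343 S-phase cells and 400 CPM in 5394 cells with no cycle call, a ratio of 2.37 (95% interval 2.33 to 2.42). In the Six2Cre library it was 742 CPM in 5042 S-phase cells and 323 CPM in 6615 cells with no call, a ratio of 2.30 (2.26 to 2.34). Cells called G2/M were higher still, at 1852 CPM in the Six2CreTet2/3f/f library and 1311 CPM in the Six2Cre library. By the rule of the call this group can take in cells with many UMIs of the S-phase list. Its level is therefore not read as one reached after S phase. The polyadenylated sum was 179 CPM in S-phase cells and 190 CPM in cells with no call in the Six2CreTet2/3f/f library, a ratio of 0.94 (0.91 to 0.98), and 181 CPM and 203 CPM in the Six2Cre library, a ratio of 0.89 (0.86 to 0.92). In G2/M cells the polyadenylated sum was higher than in cells with no call, at 247 CPM in the Six2CreTet2/3f/f library and 216 CPM in the Six2Cre library. All intervals in these results are exact and cover counting error only.

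The replication-dependent ratio of S-phase cells over cells with no call was above 1 in 12 of 12 classes in both libraries, and its interval lay above 1 in 12 classes of the Six2CreTet2/3f/f library and 11 of the Six2Cre library, the exception being neutrophil-like cells. It was 2.99 in committed nephron-like cells of the Six2CreTet2/3f/f library and 3.14 in those of the Six2Cre library, but 1.28 and 1.37 in podocyte-like cells. In nephron progenitor-like cells it was 1.47 in the Six2CreTet2/3f/f library and 1.60 in the Six2Cre library. The polyadenylated ratio had an interval above 1 in 0 of 12 classes in both libraries, and below 1 in 8 classes of the Six2CreTet2/3f/f library and 6 of the Six2Cre library.

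The same contrast appeared when cells were ordered by their UMIs of the S-phase list. Cells with 0 such UMIs had a replication-dependent level of 449 CPM in the Six2CreTet2/3f/f library and 388 CPM in the Six2Cre library. Cells with 2 had 720 CPM and 630 CPM, and cells with 5 or more had 2477 CPM and 1951 CPM. The polyadenylated level stayed between 193 and 213 CPM over all 6 bins of the Six2CreTet2/3f/f library and between 192 and 214 CPM over those of the Six2Cre library.

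**Figure D1:**
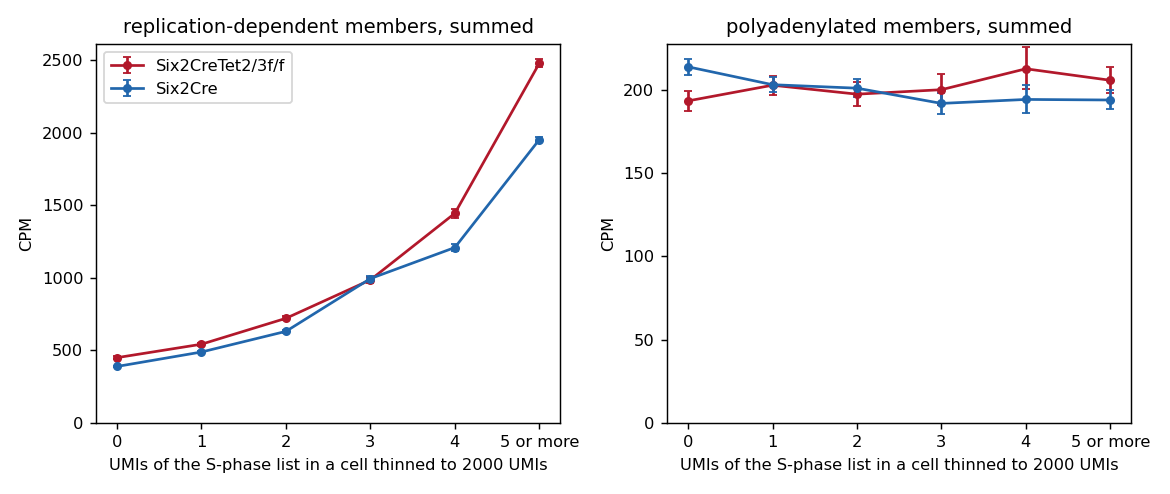
Summed level (CPM, vertical axis) of the 54 replication-dependent members (left) and the 8 polyadenylated members (right) in cells grouped by their UMIs of the S-phase list after thinning to 2000 UMIs (horizontal axis), with Six2CreTet2/3f/f in red and Six2Cre in blue; bars are exact 95% counting intervals. The replication-dependent level climbs to 2477 CPM in the Six2CreTet2/3f/f library and 1951 CPM in the Six2Cre library, while the polyadenylated level stays near 200 CPM.

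A gene was counted as higher or lower between 2 sums of cells when it reached 5 CPM in the higher of them and its 95% interval lay wholly beyond 1.5-fold, a rule of size and not a test. Of the 54 replication-dependent members, 23 reached the minimum in each library. Of these, 17 were higher in S-phase cells of the Six2CreTet2/3f/f library, where 3.18% of all genes were higher and 2.78% lower, and 16 in the Six2Cre library, where 3.02% were higher and 3.57% lower. The 2 libraries shared 15 of these genes, and none of the members was lower. Of the 8 polyadenylated members 7 reached the minimum, and 0 were higher and 0 lower in both libraries.

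The size of the S-phase difference varied widely among the replication-dependent members. Hist1h1b had 149 CPM in S-phase cells and 31.8 CPM in cells with no call in the Six2CreTet2/3f/f library, a ratio of 4.69, and 109 CPM and 25 CPM in the Six2Cre library, a ratio of 4.38. Hist1h2ap had ratios of 4.13 in the Six2CreTet2/3f/f library and 3.89 in the Six2Cre library, and Hist1h1a had 3.21 and 3.27. Hist1h1e, a linker histone gene with the second-highest count, had smaller ratios, 1.37 and 1.34, under the 1.5-fold of the rule. Hist4h4, the only member on chromosome 6, had ratios of 1.21 (1.05 to 1.39) and 1.08 (0.94 to 1.24), the lowest of the replication-dependent members that reached the minimum. The median over those members was 2.52 in the Six2CreTet2/3f/f library and 2.51 in the Six2Cre library.

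Among the polyadenylated members the H4 gene Hist1h4h had the highest ratio, 1.47 (1.31 to 1.65) in the Six2CreTet2/3f/f library and 1.61 (1.44 to 1.79) in the Six2Cre library, above those of the replication-dependent Hist1h1e and Hist4h4. The H2B gene Hist1h2bc had the lowest, 0.68 (0.63 to 0.74) and 0.72 (0.68 to 0.76). The H2A gene Hist3h2a was at 0.73 and 0.79, and Hist3h2ba, on the same chromosome, at 1.05 and 1.02. The linker histone gene Hist1h1c was at 0.98 (0.90 to 1.06) in the Six2CreTet2/3f/f library and 0.74 (0.69 to 0.79) in the Six2Cre library.

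**Figure D2:**
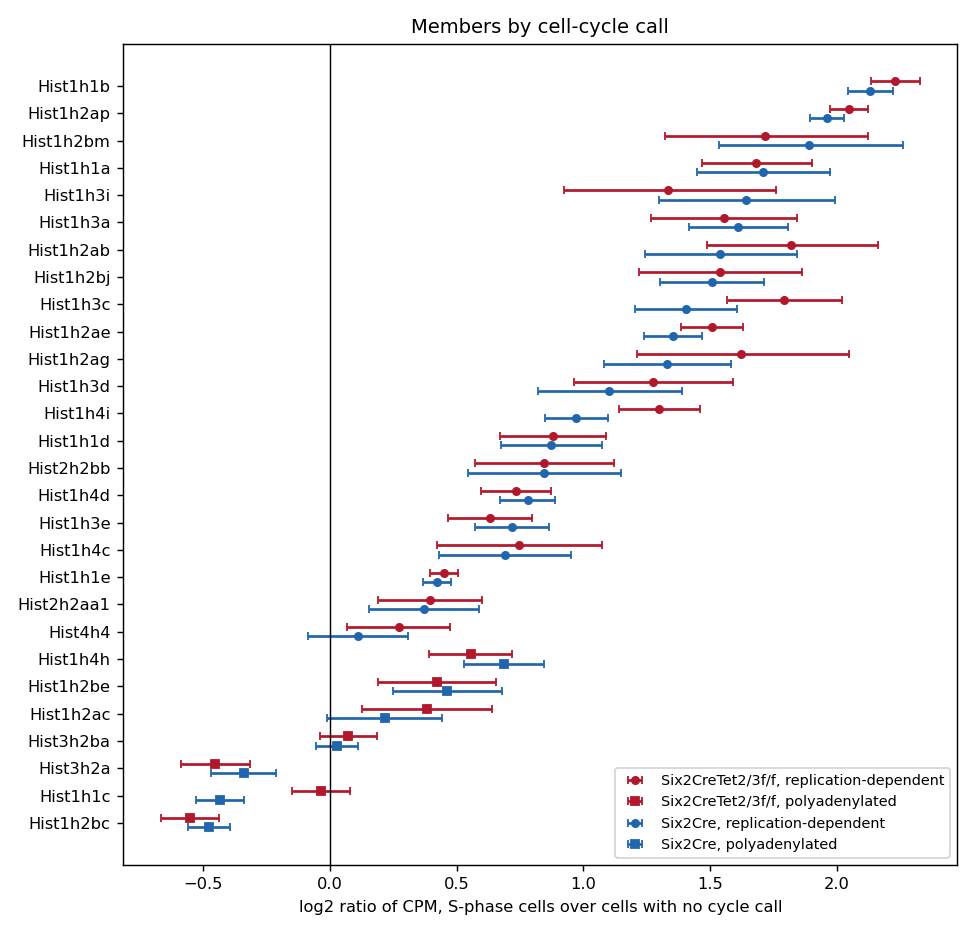
Log2 ratio of CPM in S-phase cells over cells with no cycle call (horizontal axis) for each member that reached 5 CPM in both libraries, with Six2CreTet2/3f/f in red above Six2Cre in blue; circles are replication-dependent members, squares polyadenylated members, and bars exact 95% counting intervals. The ratios run from Hist1h1b, at 4.69 and 4.38 as folds, down to Hist1h2bc, at 0.68 and 0.72.

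The cell classes differed in both kinds. In both libraries the committed nephron-like class, early cells of the forming nephron, had more replication-dependent UMIs than the progenitor-like class, at 1678 CPM against 950 CPM in the Six2CreTet2/3f/f library and 1359 CPM against 755 CPM in the Six2Cre library. This rested on 1 of its 2 clusters, cluster 0, at 1966 CPM in the Six2CreTet2/3f/f library and 1649 CPM in the Six2Cre library, while the other, cluster 3, was at 680 and 678 CPM. The progenitor-like class likewise held a cycling cluster far above its other 2. Among cells with no cycle call the gap between the classes was absent. Committed nephron-like cells were then at 566 CPM in the Six2CreTet2/3f/f library and 389 CPM in the Six2Cre library, and progenitor-like cells at 581 and 402 CPM. Proximal tubule-like cells were the lowest of the 12 classes in both, at 359 CPM in the Six2CreTet2/3f/f library and 265 CPM in the Six2Cre library. The polyadenylated sum was highest in podocyte-like cells, at 404 CPM in both libraries, though these cells fell into clusters differently. Cluster 13 held 2.16% of them in the Six2CreTet2/3f/f library and 30.9% in the Six2Cre library, and its polyadenylated level was 828 CPM in the Six2CreTet2/3f/f library, from 13 cells, and 670 CPM in the Six2Cre library. The ratio of replication-dependent to polyadenylated UMIs was 1.42 in proximal tubule-like cells of the Six2CreTet2/3f/f library and 0.815 in those of the Six2Cre library, and 7.71 and 5.85 in stroma-like cells.

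**Figure D3:**
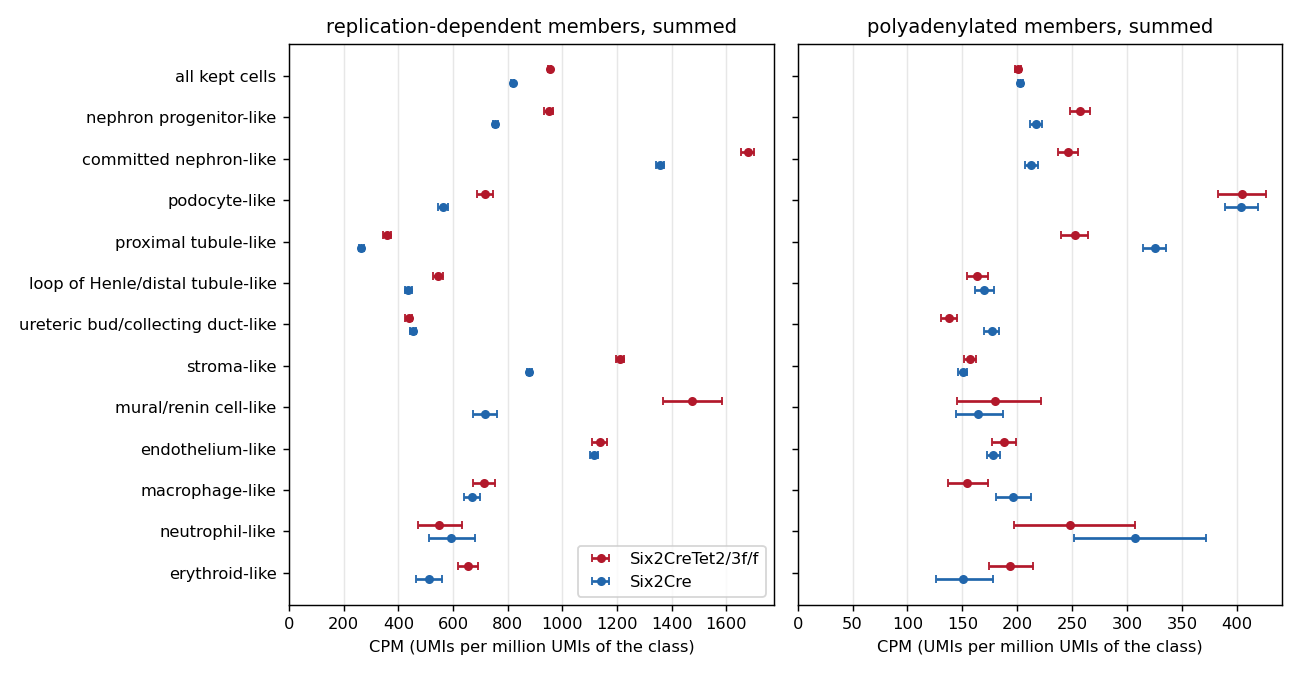
Summed CPM (horizontal axis) of the replication-dependent (left) and polyadenylated members (right) in all kept cells and in each class, with Six2CreTet2/3f/f in red above Six2Cre in blue; bars are exact 95% counting intervals. Committed nephron-like cells sit highest among the nephron classes on the left (1678 and 1359 CPM), and podocyte-like cells highest on the right (404 CPM in both libraries).

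Single polyadenylated members had marked patterns over the classes. Hist3h2ba was highest in podocyte-like cells, at 179 CPM in the Six2CreTet2/3f/f library and 165 CPM in the Six2Cre library. Next in both libraries came progenitor-like cells (83.1 and 90.8 CPM) and committed nephron-like cells (60.5 and 66.9 CPM), each apart from its neighbour in the order by non-overlapping intervals. In stroma-like cells it was at 12.3 and 19.7 CPM. Hist1h2bc was highest in neutrophil-like and proximal tubule-like cells. In neutrophil-like cells it was at 121 CPM in the Six2CreTet2/3f/f library and 125 CPM in the Six2Cre library, and in proximal tubule-like cells at 108 CPM and 163 CPM, so their order differed between the libraries, within the counting error of the neutrophil-like value in the Six2CreTet2/3f/f library. In progenitor-like cells Hist1h2bc was at 38.9 and 37.4 CPM. Hist3h2a, the other member on chromosome 11, was highest in podocyte-like cells too (44.4 and 36.2 CPM) but stood at 38.6 and 31.7 CPM in proximal tubule-like cells. Hist1h4h was highest among the nephron classes in committed nephron-like cells, at 43.1 CPM in the Six2CreTet2/3f/f library and 34.2 CPM in the Six2Cre library. Hist2h2be stayed under 5 CPM in every class of both libraries.

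**Figure D4:**
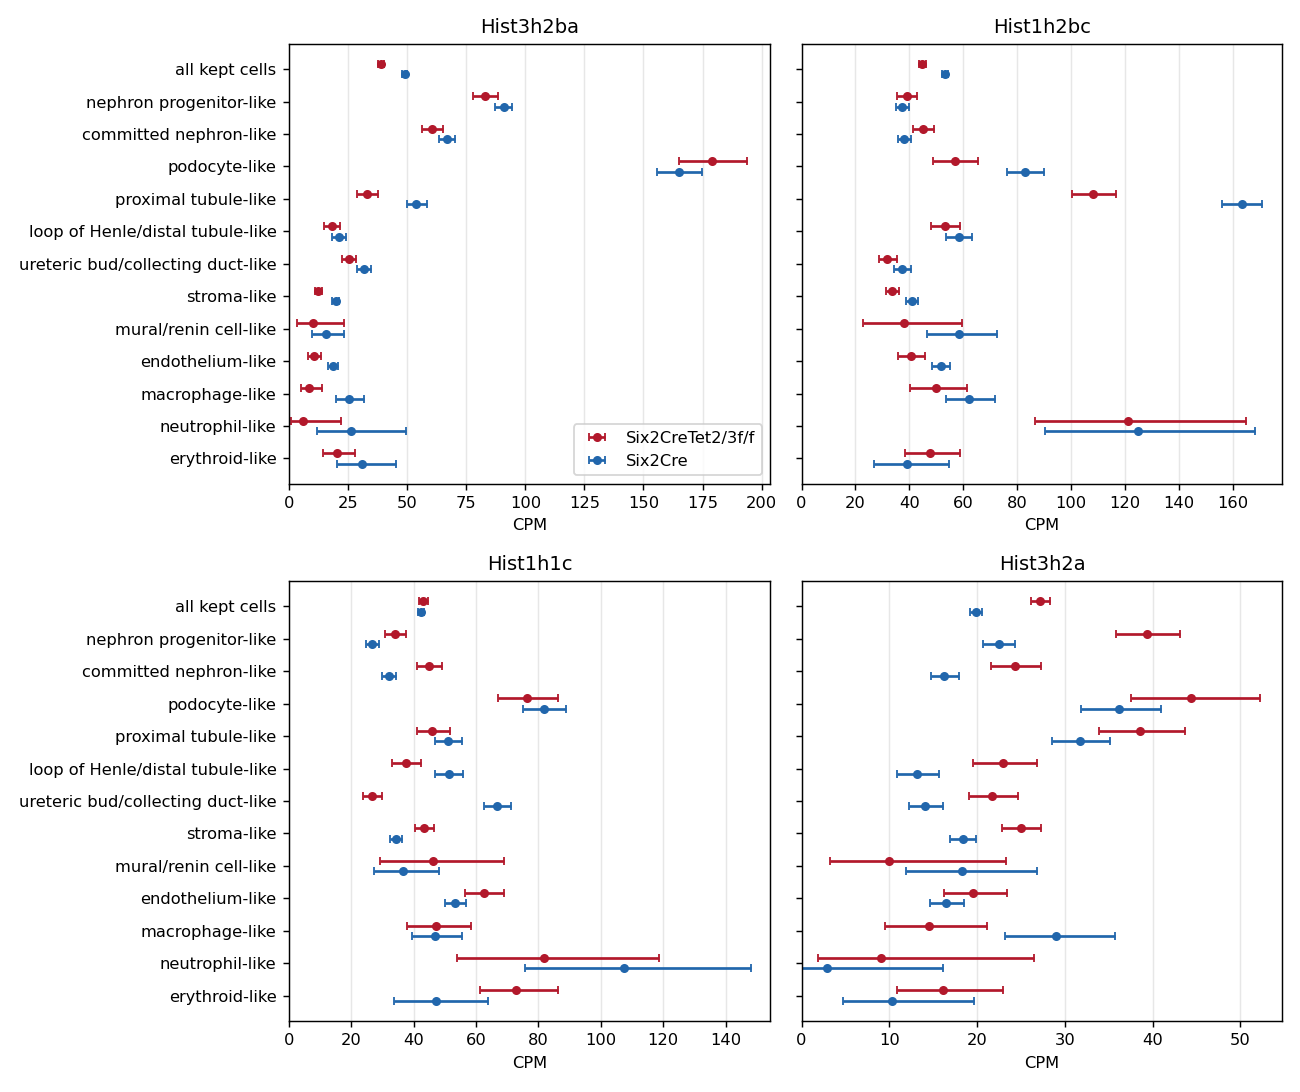
CPM (horizontal axes) of 4 polyadenylated members in all kept cells and in each class, with Six2CreTet2/3f/f in red above Six2Cre in blue; bars are exact 95% counting intervals. Hist3h2ba stands highest in podocyte-like cells (179 and 165 CPM), and Hist1h1c in ureteric bud/collecting duct-like cells is at 26.6 CPM in the Six2CreTet2/3f/f library and 66.8 CPM in the Six2Cre library.

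Between the genotypes, the replication-dependent sum was higher in the Six2CreTet2/3f/f library and the polyadenylated sum differed by less than its counting error, over all kept cells. The replication-dependent members summed to 954 CPM in the Six2CreTet2/3f/f library and 818 CPM in the Six2Cre library, a ratio of 1.17 (1.16 to 1.18). The polyadenylated members summed to 200 CPM and 203 CPM, a ratio of 0.99 (0.97 to 1.01). The replication-dependent ratio was above 1 in 10 of 12 classes, with an interval above 1 in 8 and below 1 in 0. It was 1.26 (1.23 to 1.29) in progenitor-like cells, 1.38 (1.35 to 1.40) in stroma-like cells and 2.06 (1.87 to 2.27) in mural/renin cell-like cells, a class of 119 and 245 cells. It was 1.02 (0.99 to 1.05) in endothelium-like cells and 0.96 (0.93 to 1.00) in ureteric bud/collecting duct-like cells. Both class values average over clusters that differ. The 3 endothelium-like clusters had ratios of 1.05 (1.00 to 1.10), 1.20 (1.15 to 1.24) and 1.27 (1.15 to 1.41), and the one with the highest level, cluster 10, held 223 of 1542 cells of the class in the Six2CreTet2/3f/f library and 537 of 2914 in the Six2Cre library. In the ureteric bud/collecting duct-like class the ratio was 1.14 (1.08 to 1.19) in cluster 1 and 0.83 (0.78 to 0.88) in cluster 23. In proximal tubule-like cells it was 1.36 (1.28 to 1.43), a log2 ratio of 0.44, which became -0.040 with the stricter cell filter. In erythroid-like cells it was 1.28 (1.15 to 1.43), a log2 ratio of 0.35. The median log2 ratio of single genes there was 0.24 over all 9397 genes that reached 5 CPM. It was also 0.24 over the replication-dependent members that did. Classes of the Six2 lineage and classes outside it were thus both among those with a higher sum.

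The polyadenylated sum moved in both directions. It was higher in progenitor-like cells, at 257 CPM in the Six2CreTet2/3f/f library and 217 CPM in the Six2Cre library (ratio 1.19, 1.13 to 1.24), and in committed nephron-like cells, at 246 and 213 CPM. It was lower in proximal tubule-like cells, at 252 CPM in the Six2CreTet2/3f/f library and 325 CPM in the Six2Cre library (ratio 0.78, 0.73 to 0.82), in ureteric bud/collecting duct-like cells (ratio 0.78) and in macrophage-like cells (ratio 0.79). In the ureteric bud/collecting duct-like class it was lower in cluster 23 (0.63, 0.58 to 0.68), and in cluster 1 the ratio was 1.09 (0.99 to 1.22). Podocyte-like cells had a ratio of 1.00 (0.94 to 1.07) over the class, but 1.13 (1.05 to 1.21) within cluster 2 and 1.24 (0.85 to 1.74) within cluster 13, whose share of the class differed between the libraries as given above.

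The shares of cells called S phase or G2/M differed between the libraries. S-phase calls were 34.4% of thinned cells in the Six2CreTet2/3f/f library and 28.7% in the Six2Cre library, and G2/M calls were 22.8% and 33.7%. Many cells lay near the limit of a call. Of S-phase cells, 39.0% in the Six2CreTet2/3f/f library and 38.2% in the Six2Cre library held just the 2 UMIs needed. Of cells with no call, 51.5% and 49.99% held 1 UMI of the S-phase list, 1 short of the limit. Cells 1 UMI short on the G2/M list alone are not in these shares. These shares alone are not read as a difference in cycling. In progenitor-like cells S-phase calls were 49.5% and 38.2%, and G2/M calls 16.5% and 27.9%. The S-phase list itself had a ratio of 1.01 over all kept cells and 1.11 in progenitor-like cells, and the G2/M list 0.74 and 0.67. Among cells with the same call over all kept cells, the replication-dependent ratio of the Six2CreTet2/3f/f library over the Six2Cre library was 1.28 in S-phase cells, 1.41 in G2/M cells and 1.24 in cells with no call. In progenitor-like cells these ratios were 1.33, 1.51 and 1.45. The progenitor-like class held 3 clusters, and its cycling cluster made up 11.6% of its cells in the Six2CreTet2/3f/f library and 21.3% in the Six2Cre library. Within that cluster the replication-dependent sum was 2622 CPM in the Six2CreTet2/3f/f library and 1532 CPM in the Six2Cre library, and within the largest progenitor-like cluster 650 CPM and 431 CPM. Over all kept cells and over progenitor-like cells the ratio was thus larger within each call than without calls. In single classes this held less often: of 33 pairs of class and call, 10 had a ratio below that of the whole class, such as mural/renin cell-like cells with no call (1.56) and proximal tubule-like cells with no call (1.24). The interval lay above 1 in 28 of the 33 and below 1 in 2, the S-phase cells of the ureteric bud/collecting duct-like class (0.85) and of the macrophage-like class (0.85). The part of depth, free RNA and other library differences was not tested.

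The difference was not shared evenly by the histone families. Over all kept cells the replication-dependent H1 genes summed to 378 CPM in the Six2CreTet2/3f/f library and 293 CPM in the Six2Cre library, a ratio of 1.29 (1.27 to 1.31). The ratio was 1.13 for H2A genes, 1.15 for H3 genes and 1.02 (0.99 to 1.05) for H4 genes. For H2B genes it was 0.97 (0.93 to 1.00). In progenitor-like cells the H1 ratio was 1.47 (1.42 to 1.53), with 364 CPM and 247 CPM, and the H2B ratio was 1.01 (0.92 to 1.10). Other classes differed. In stroma-like cells the ratio was 1.44 for H1, 1.45 for H2A and 1.18 (1.09 to 1.27) for H2B genes. In mural/renin cell-like cells the H2B ratio was 2.11 (1.36 to 3.23) beside 2.16 for H1. In endothelium-like cells H1 was at 1.13 and H2A at 0.92 (0.88 to 0.96). In the Six2CreTet2/3f/f library Hist1h1e gave 17226 of 33601 replication-dependent H1 UMIs, and Hist1h2ap 19145 of 29271 H2A UMIs.

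Over all kept cells, 34 members reached the 5 CPM minimum. Of these, 3 were higher in the Six2CreTet2/3f/f library, where 3.03% of all genes were higher, and 2 were lower, where 2.45% of all genes were lower. The higher ones were Hist1h1a, with 19.7 CPM in the Six2CreTet2/3f/f library and 10.3 CPM in the Six2Cre library (ratio 1.91, 1.78 to 2.04), Hist1h4a with 5.82 and 3.38 CPM (1.72) and Hist2h2bb, an H2B gene, with 11.3 and 6.66 CPM (1.69). The lower ones were Hist2h2ac, with 4.27 CPM in the Six2CreTet2/3f/f library and 12.4 CPM in the Six2Cre library (0.34, 0.31 to 0.38), and Hist1h2bk, an H2B gene, with 2.79 and 5.14 CPM (0.54). The median log2 ratio of the members that reached the minimum was 0.25, and that of all 11115 genes tested was -0.003.

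In progenitor-like cells, the cells in which Six2Cre acts, 33 members reached the minimum and 10 were higher in the Six2CreTet2/3f/f library, a share of 30.3% where 2.45% of all genes were higher. Hist2h2ac alone was lower, where 1.8% of all genes were lower. Among the higher ones were Hist1h1a, with 26.0 CPM in the Six2CreTet2/3f/f library and 11.6 CPM in the Six2Cre library (2.24), Hist1h1d, also an H1 gene (17.9 and 9.84 CPM, 1.81), and the H4 genes Hist1h4a (2.23), Hist4h4 (2.17) and Hist1h4j (3.00). Hist4h4 was at 25.1 CPM in the Six2CreTet2/3f/f library and 11.6 CPM in the Six2Cre library. The H2A gene Hist2h2aa1 (2.04) and the H3 gene Hist1h3f (1.99) completed the replication-dependent ones. Of the polyadenylated list 3 members were higher: Hist1h2be with 17.9 CPM in the Six2CreTet2/3f/f library and 8.27 CPM in the Six2Cre library, Hist1h2ac with 14.5 and 6.77 CPM, and Hist3h2a with 39.4 and 22.5 CPM. With trimmed-mean (TMM) scaling 6 members were higher in place of 10, among cells with no cycle call also 6, and after thinning 3. The share of all genes past the rule under these settings is not given here, so these counts have no background.

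The other classes had between 0 and 8 members higher. In committed nephron-like cells 2 of the 40 members that reached the minimum were higher and 1 lower (background 1.84% and 1.05%). They were Hist1h1a, Hist1h4a and Hist2h2ac. In stroma-like cells 5 of 34 were higher and 1 lower (2.11% and 2.32%). Those higher were Hist2h2bb, Hist1h1a, Hist1h4a, Hist1h3f and Hist1h2ae, an H2A gene with 98.0 CPM in the Six2CreTet2/3f/f library and 55.3 CPM in the Six2Cre library. In mural/renin cell-like cells 8 of 34 were higher and 0 lower (0.8% and 0.475%). Among them Hist1h2ae was at 138 CPM from 69 UMIs in the Six2CreTet2/3f/f library and 40.8 CPM from 58 UMIs in the Six2Cre library. The others there were Hist1h1b, Hist1h2ap, Hist1h1d, Hist1h1e, Hist1h2bb, Hist1h2ab and Hist4h4, the last from 8 and 3 UMIs. With TMM scaling 4 members were higher in this class, and after thinning of each cell to 2000 UMIs 0. Shares of all genes are not given for these settings. In loop of Henle/distal tubule-like cells Hist1h2ae and Hist1h1a were higher (2 of 24 members, background 1.83%) and 0 were lower (2.71%). In proximal tubule-like cells 0 of 20 were higher (2.09%) and Hist2h2ac was lower (2.79%). In endothelium-like cells 0 of 34 were higher (1.34%) and Hist2h2ac was again lower (1.98%). Its level in the endothelium-like class was 4.62 CPM in the Six2CreTet2/3f/f library and 17.5 CPM in the Six2Cre library. In macrophage-like cells, with 30 members at the minimum, Hist4h4 was higher (1.47%) and Hist3h2ba was lower (2.62%). Hist3h2ba was at 8.59 CPM in the Six2CreTet2/3f/f library and 25.3 CPM in the Six2Cre library. A single call is 5% of the members in proximal tubule-like, 2.94% in endothelium-like and 3.33% in macrophage-like cells. Such single calls are not read as a result about the members. No member passed the rule in podocyte-like (of 28, 1.63% and 1.55%), neutrophil-like (of 28, 0.524% and 0.542%) or erythroid-like cells (of 29, 1.05% and 0.521%).

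Hist1h1c stood apart in ureteric bud/collecting duct-like cells. It was at 26.6 CPM in the Six2CreTet2/3f/f library and 66.8 CPM in the Six2Cre library, a ratio of 0.40 (0.35 to 0.45). Of the 23 members that reached the minimum there, it was 1 of 3 that were lower (background 1.92%, with 0 higher against 2.71%). The other 2 were Hist2h2ac and the H2A gene Hist1h2ag. The class held 2 clusters of nearly equal size, and Hist1h1c was at 31.2 CPM in the Six2CreTet2/3f/f library and 99.2 CPM in the Six2Cre library in cluster 23, and at 19.6 and 26.2 CPM in cluster 1. In committed nephron-like cells it went the other way, at 44.9 CPM in the Six2CreTet2/3f/f library and 32.1 CPM in the Six2Cre library, a ratio of 1.40 (1.25 to 1.57). Over all kept cells Hist1h1c was at 43.1 and 42.4 CPM.

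Of the 62 members, 18 were on 1 side of their Six2Cre level in at least 11 of 12 classes, 11 of them above and 7 below. The same count was not made over all genes, so it is not read as a trait of the members. Hist1h1a was above its Six2Cre level in 12 of 12 classes, with an interval above 1 in 10. Hist2h2ac was below its Six2Cre level in 11 of 12 classes, with an interval below 1 in 9, the exception being neutrophil-like cells, where it had 3 UMIs in the Six2CreTet2/3f/f library and 0 in the Six2Cre library. Hist2h2aa1 and Hist2h2bb were above in 12 of 12 classes, with intervals above 1 in 7 and 8, and so was Hist1h2ae, with an interval above 1 in 9. Hist2h2be was below in 12 of 12, with an interval below 1 in 4. Hist3h2ba was below in 11 of 12 classes, podocyte-like cells being the exception, while Hist3h2a was above in 10 of 12. The classes share their libraries, so these counts are not independent observations.

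In the chromosome 3 cluster (GRCm38.p6, chr3:96219885-96270192), the first 3 of 9 members in chromosomal order had ratios below 1 over all kept cells and the other 6 had ratios above 1. The first 3 were Hist2h2ab (0.82, 0.61 to 1.08), Hist2h2ac (0.34) and Hist2h2be (0.58), and the others included Hist2h2aa1 (1.55), Hist2h3b (1.53) and Hist2h2bb (1.69). The rest were Hist2h3c2 (1.04, 0.55 to 1.92), Hist2h3c1 (1.15, 0.83 to 1.58) and Hist2h4 (1.19, 0.99 to 1.42). Their intervals, like that of Hist2h2ab, include 1, so these members had no direction beyond counting error. Whether direction follows position was not tested. At the end of the chromosome 13 cluster neighbours differed: the H3 gene Hist1h3a (0.73) lies between Hist1h4a (1.72) and Hist1h1a (1.91). Of 7 pairs of members that start within 1000 bases of each other in opposite directions, 4 had both ratios on the same side of 1 and 3 did not. In no pair but Hist1h2ag and Hist1h2bj did both intervals exclude 1, so these counts are not read as a trait of pairs. Hist1h2ag and Hist1h2bj, whose starts are 249 bases apart, were both lower, at 0.62 (0.57 to 0.68) and 0.63 (0.59 to 0.68). Hist1h2ae and Hist1h2bg, 180 bases apart, had ratios of 1.36 (1.32 to 1.41) and 0.85 (0.71 to 1.02). Tet2 lies on chromosome 3 as well (chr3:133463677-133545136), far from the histone cluster there.

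**Figure D5:**
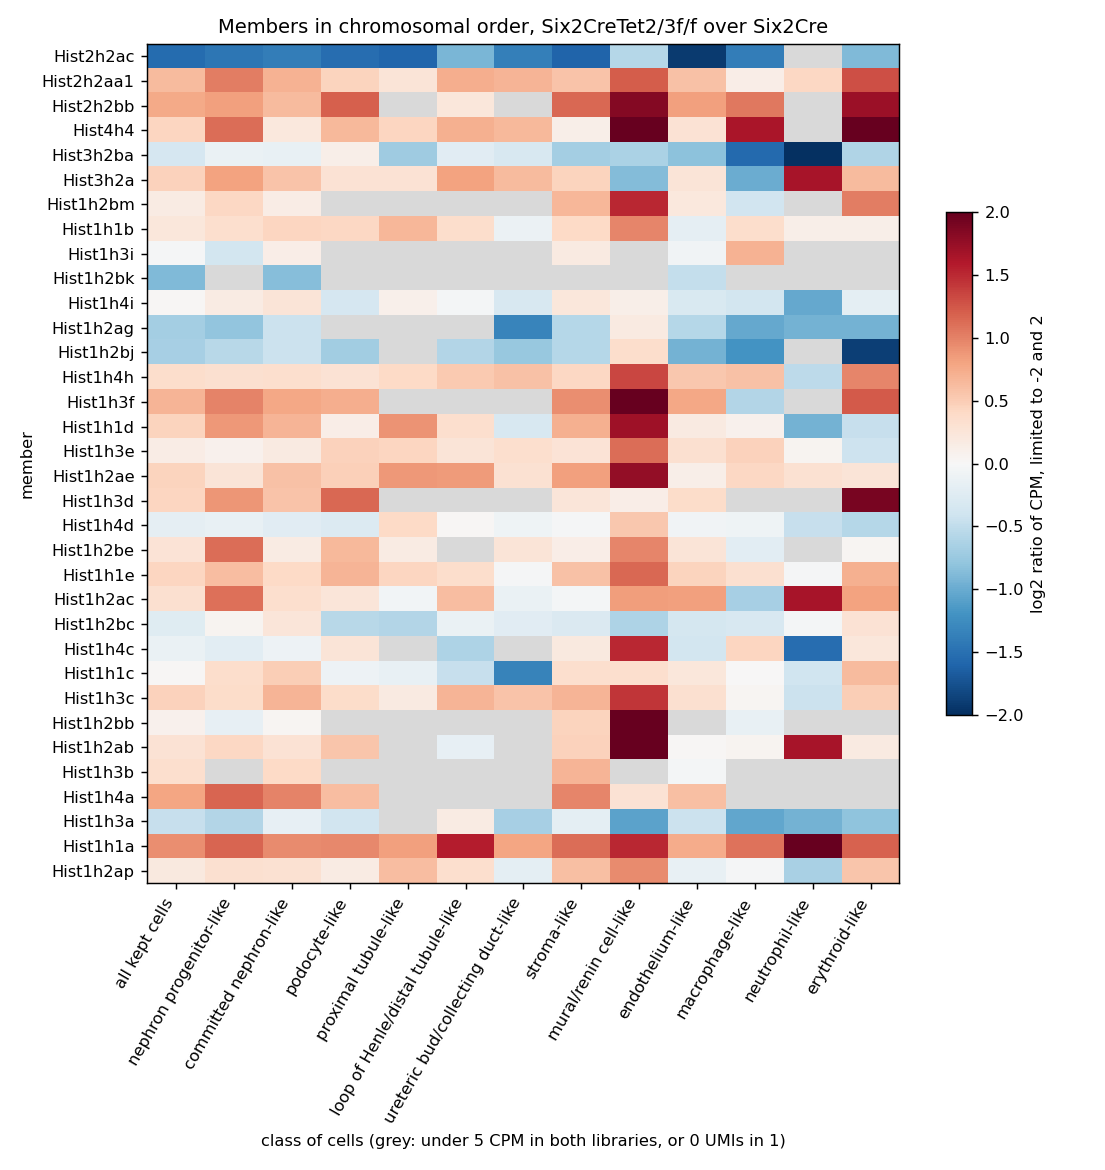
Log2 ratio of CPM, Six2CreTet2/3f/f over Six2Cre (colour, limited to -2 and 2), for the 34 members that reached 5 CPM over all kept cells, in chromosomal order down the page with Hist1h2ap, which has no position, last, and by class across. Red is higher in Six2CreTet2/3f/f, blue is lower, and grey marks a member under 5 CPM in both libraries or with 0 UMIs in a library; Hist2h2ac and Hist1h1a keep their colour over nearly all columns, and the mural/renin cell-like column is mostly red.

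The list of histone genes outside the clusters held 11 replacement and variant histone genes, such as H2afz, H3f3a and H3f3b, most of which give polyadenylated mRNA through the cycle. Over all kept cells 0 of 11 were higher and 0 lower by the same rule, where 3.03% and 2.45% of all genes were, with H3f3b at 2631 CPM in the Six2CreTet2/3f/f library and 2526 CPM in the Six2Cre library. The linker histone gene H1f0 was lower in ureteric bud/collecting duct-like cells, at 228 CPM in the Six2CreTet2/3f/f library and 362 CPM in the Six2Cre library (0.63, 0.60 to 0.66), the class where Hist1h1c was lower too. Cenpa, the centromeric H3 variant, was lower in progenitor-like cells, at 57.5 CPM in the Six2CreTet2/3f/f library and 99.1 CPM in the Six2Cre library, and also in the loop of Henle/distal tubule-like and ureteric bud/collecting duct-like classes. By class, 2 of the 11 genes were lower in ureteric bud/collecting duct-like cells, where 1.92% of all genes were lower. In progenitor-like and loop of Henle/distal tubule-like cells 1 of 11 was lower, where 1.8% and 2.71% of all genes were. Cenpa is 1 of the genes of the G2/M list.

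Of 17 genes that process histone mRNA, drive histone transcription or carry histone proteins, 0 were higher and 0 lower over all kept cells. In progenitor-like cells Lsm10, a subunit of the U7 particle that cuts the histone mRNA 3′ end, was higher, at 29.0 CPM in the Six2CreTet2/3f/f library and 16.0 CPM in the Six2Cre library (1.81, 1.57 to 2.10). This was 1 of the 16 genes that reached the minimum there, where 2.45% of all genes were higher. A single call is not read as a result about the list. Slbp, which binds the stem-loop, was at 78.2 CPM in the Six2CreTet2/3f/f library and 86.5 CPM in the Six2Cre library over all kept cells, and Npat, the coactivator of histone genes, at 22.9 and 21.6 CPM. Between S-phase cells and cells with no call, 6 of the 16 of these genes that reached the minimum were higher in the Six2CreTet2/3f/f library, where 3.18% of all genes were higher, and 7 of 16 in the Six2Cre library, where 3.02% were. The size rule called 0 of them lower in both. They include Asf1b and Chaf1a, histone chaperones of replication, with ratios of 5.96 and 3.60 in the Six2CreTet2/3f/f library and 4.29 and 3.24 in the Six2Cre library, and also Slbp and Chaf1b, 2 genes of the S-phase list itself.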

How the data were processed

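Single-cell RNA-seq counts were analysed for 1 Six2CreTet2/3f/f and 1 Six2Cre library of whole newborn kidney, for which the labels' protocols give 10000 loaded cells each and a 3′ kit. The authors deposited UMI counts per gene and barcode, made with Cell Ranger (6.0.2 per the submitters' processing notes, 6.0.1 per the file headers) on mm10, and nothing in them was rescaled here before summing. Of the deposited barcodes, those with at least 1000 UMIs, 500 genes and under 15% mitochondrial UMIs were kept. The doublet caller scrublet set a threshold that marked 0 cells of the Six2CreTet2/3f/f library and 2228 of the Six2Cre library, so the 8% of cells with the highest score were removed from each (1251 and 1695). Cells of both libraries were clustered together with scanpy 1.11.5 on 2000 variable genes without histone genes, 30 principal components and Leiden resolution 1. UMI sums per class were divided by the class total, and ratios carry exact conditional binomial 95% intervals, levels exact Poisson intervals, both of counting error only. With 1 library per genotype there is no test across animals. The intervals and the size rule were run on simulated counts with 3-fold changes, drawn from the counting model that the intervals assume. Such counts hold no variation between cells, animals or libraries, so the run checks the calculation only. TMM factors came from edgeR 4.0.16. The genes named were the 12 members with the most UMIs, the polyadenylated list, members past the size rule (up to 10 per class by log2 ratio), Tet2, Tet3 and other listed genes past the rule; members named for their position, their cycle ratio or their direction over classes, and the processing genes with no call, were chosen after their values were seen. The 18 symbols of the processing list matched 17 genes. The members and lists were chosen with earlier results of these data known.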

Additional observations from a re-analysis of the deposited data

Results flagged for a closer look

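For 5 members and 1 sum the difference between the libraries ran in opposite directions in 2 classes, each with an interval on its own side of 1. Each class is 1 pair of libraries, and the difference between classes was not tested. Hist1h1c had a log2 ratio of 0.49 in committed nephron-like cells and -1.33 in ureteric bud/collecting duct-like cells, 1.81 apart. Hist3h2a had 0.81 in progenitor-like cells and -0.999 in macrophage-like cells, also 1.81 apart. Hist1h2be had 1.12 in progenitor-like cells. In neutrophil-like cells it had 0 UMIs in the Six2CreTet2/3f/f library. With 3 UMIs put in place of that 0, its log2 ratio there was -1.16 and the gap 2.28. These values leave out the counting error of the Six2Cre count, so they are not bounds. Hist1h1b had 0.97 in mural/renin cell-like cells and -0.19 in endothelium-like cells, a gap of 1.16. Hist1h2ap had 0.94 and -0.15 in the same classes, a gap of 1.09. As given above, the endothelium-like class averages over clusters that differ, where the replication-dependent sum had ratios of 1.05, 1.20 and 1.27. After thinning, no member passed the size rule as higher in mural/renin cell-like cells. The polyadenylated sum had 0.25 in progenitor-like cells and -0.37 in proximal tubule-like cells, 0.61 apart.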

How the results depend on the processing

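With 1 library per genotype, every difference between the genotypes compares 2 libraries and cannot be told apart from a difference of animal or preparation. No paired analysis was possible because each genotype has 1 library and the labels share no more than 1 replicate number. No replicate could be left out. The replication-dependent sum over all kept cells (log2 ratio 0.22, Six2CreTet2/3f/f over Six2Cre) kept its direction in every alternative run. It was 0.19 under looser and 0.24 under stricter filtering of cells, 0.19 with cells thinned to 2000 UMIs, 0.31 in cells with no cycle call, 0.19 with TMM scaling and 0.17 without Hist1h1e. In progenitor-like cells (0.33) it was 0.29 with histone genes in the clustering, 0.37 after thinning, 0.53 in cells with no cycle call, 0.26 with TMM scaling, 0.26 without Hist1h1e and 0.58 without the cycling cluster. The settings without Hist1h1e and without the cycling cluster were chosen after seeing the data. The polyadenylated sum over all kept cells (-0.02) was -0.047 with the looser filter, 0.020 with the stricter one, -0.10 in cells with no cycle call, -0.043 with TMM scaling and -0.12 with Hist1h1c and Hist1h2bc alone, and in progenitor-like cells (0.25) it was 0.18 with TMM scaling. The 10 members higher in progenitor-like cells became 3 after thinning, 6 in cells with no cycle call, 3 with a minimum of 25 CPM and 6 with TMM scaling. The 1 member lower there became 0 after thinning, in cells with no cycle call and with a minimum of 25 CPM, and thinned and uncalled cells hold fewer UMIs. The share of all genes past the rule is not given for these settings, so these counts have no background beside them. TMM scaling shifted all log2 ratios by -0.20 in erythroid-like cells and by 0.10 in neutrophil-like cells.

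The S-phase log2 ratio of the replication-dependent sum (1.25 in the Six2CreTet2/3f/f library, 1.20 in the Six2Cre library) was 1.55 and 1.48 with calls at 3 UMIs, 1.28 and 1.24 with the looser filter and 0.56 and 0.68 in progenitor-like cells alone. It was 1.21 in the Six2CreTet2/3f/f library with the stricter filter. That of the polyadenylated sum (-0.09 and -0.17) was -0.30 and -0.46 with Hist1h1c and Hist1h2bc alone, 0.061 and -0.048 with Hist1h4i added, and -0.12 in progenitor-like cells of the Six2Cre library. With the stricter filter 2 sums changed direction: the replication-dependent one in proximal tubule-like cells (-0.040 in place of 0.44) and the polyadenylated one in erythroid-like cells (-0.19 in place of 0.36). The cause was not tested.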

Other observations

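Of the 29 clusters, 5 were given no class name, with 2127 cells of the Six2CreTet2/3f/f library and 2511 of the Six2Cre library, and they enter no comparison by class. In cluster 15, led by the haemoglobin genes Hba-a1, Hba-a2 and Hbb-bs, the replication-dependent sum was 1627 CPM in 1100 cells of the Six2CreTet2/3f/f library and 1495 CPM in 1311 cells of the Six2Cre library. Its polyadenylated sum was 209 CPM in the Six2CreTet2/3f/f library and 249 CPM in the Six2Cre library. The cells of this cluster were shallow, with a median of 1427 UMIs in the Six2CreTet2/3f/f library and 1481 UMIs in the Six2Cre library. In cluster 12, led by Nts, Cck and Nrxn3, the replication-dependent sum was 577 CPM in the Six2CreTet2/3f/f library and 425 CPM in the Six2Cre library. In cluster 26, led by Upk3a, Sprr1a and Psca, it was 625 CPM in 79 cells of the Six2CreTet2/3f/f library and 331 CPM in 49 cells of the Six2Cre library. In cluster 27, led by Ahsg, Alb and Fgg, it was 772 CPM from 58 UMIs in the Six2CreTet2/3f/f library and 572 CPM from 212 UMIs in the Six2Cre library. Cluster 24, led by H2-Aa, Cd74 and Gzma, went the other way, at 493 CPM in 75 cells of the Six2CreTet2/3f/f library and 1065 CPM in 55 cells of the Six2Cre library.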
